A study of Phaffia rhodozyma with 6 samples.

Results

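The fungal cell wall and carbohydrate-active enzymes of *Phaffia rhodozyma*, a basidiomycete yeast that makes astaxanthin, were compared between cells grown with salicylic acid (SA) and without it. The genes were chosen by words of their deposited description, namely glycoside or glycosyl hydrolase, chitin, glucan, glycosyltransferase family, RlpA, expansin, SUR7 and mannosyltransferase. Of the 6249 genes in the table, 114 carried such a word. After 14 genes on the N-glycan, endoplasmic reticulum, MAPK signaling or glycolysis maps of KEGG were left out, 100 genes remained. The rule itself used no measured value, but it was chosen with earlier results of these data known. It names genes 8349, 4335 and 10399 as included.

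The S group held 3 libraries from strain AS2.1557 grown in YPD medium with 0.5 mg/L SA, a phenolic plant hormone. The C group held 3 libraries from the same strain given deionized water in its place. The methods of the study describe culture at 22 °C for 96 h, without a separate time for RNA sampling. The study says that its experiments were repeated, but not whether each RNA library came from a culture of its own, so a p-value here reflects library-to-library spread that may be technical.

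Each gene has 1 value per library in FPKM, fragments scaled by transcript length and by library size, which is comparable between genes of different length. Library values are given in the order 1, 2, 3. Log2(FPKM + 0.1) was compared with limma for the 6113 genes that averaged 0.5 FPKM or more, and a gene was called higher or lower at a Benjamini-Hochberg adjusted p under 0.05. Every adjusted p below comes from that test, and log2 fold changes are S against C on the log2(FPKM + 0.1) scale with their standard error (SE). The median tested gene was at 29.2 to 32.0 FPKM in the S libraries and at 23.6 to 26.4 FPKM in the C libraries, and their log2 fold changes had a median of 0.21. Calls are therefore also given for median-centred libraries and for quantile-normalized values. The deposited table gives no read number behind a single value, and no counting interval is given here.

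The wall of a yeast cell is a network of beta-glucans and chitin that carries an outer layer of mannoproteins. Synthases in the plasma membrane spin out the glucan and chitin chains, mannosyltransferases along the secretory pathway build the sugar chains of the mannoproteins, and secreted glycoside hydrolases cut, branch and rejoin the polymers while the cell grows and buds. Other glycoside hydrolases and glycosyltransferases handle storage glycogen or food sugars. Double-psi beta-barrel domains of the RlpA kind are found in expansins, plant proteins that loosen cell walls, and SUR7 proteins sit in the plasma membrane below the wall.

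A few single genes rose steeply in the S group, while several abundant hydrolases and chitin synthases stood slightly lower. The largest rise on the log2(FPKM + 0.1) scale was that of gene 4335, an RlpA-like protein, at 108 ± 34.9 FPKM in the S group and 16.1 ± 4.74 FPKM in the C group (SD, n = 3 each). The most abundant gene that fell was gene 379, described as mannosyltransferase CMT1, at 543 ± 34.6 FPKM in the S group and 746 ± 18.1 FPKM in the C group (SD, n = 3 each). Of the 93 genes that could be tested, 10 were higher and 13 were lower in the S group, where 19.9% of all tested genes were higher and 3.03% were lower. The remaining 70 tested genes did not pass. The shares of the 93 genes were 10.8% higher and 14.0% lower, so as deposited rises were scarcer and falls more frequent among them than among all genes. Their median log2 fold change was −0.03, beside 0.21 for all tested genes.

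The scaling between libraries changed the number of falls more than that of rises. With centred libraries, 8 of the 93 genes were higher and 37 were lower, where 7.26% of all tested genes were higher and 15.3% were lower. After quantile normalization the counts were 8 higher and 23 lower, against 6.61% and 8.47% of all tested genes. Under centring the share of rises among the 93 genes, 8.60%, was thus close to that of all genes, as it was after quantile normalization. It was clearly below that of all genes only in the values as deposited. The share of falls was above that of all genes under all 3 scalings. The same 8 genes were higher under all 3 scalings, and 12 of the 13 falls were called under all 3. The values of all 3 S libraries lay above all 3 C libraries for 17 of the 93 genes (18.3%, against 36.1% of all tested genes) and below them for 27 (29.0%, against 7.48%). The wall and carbohydrate genes held 1.84% to 1.91% of the length-weighted FPKM in the S libraries and 2.02% to 2.09% in the C libraries. These ranges did not overlap.

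**Figure D1:**
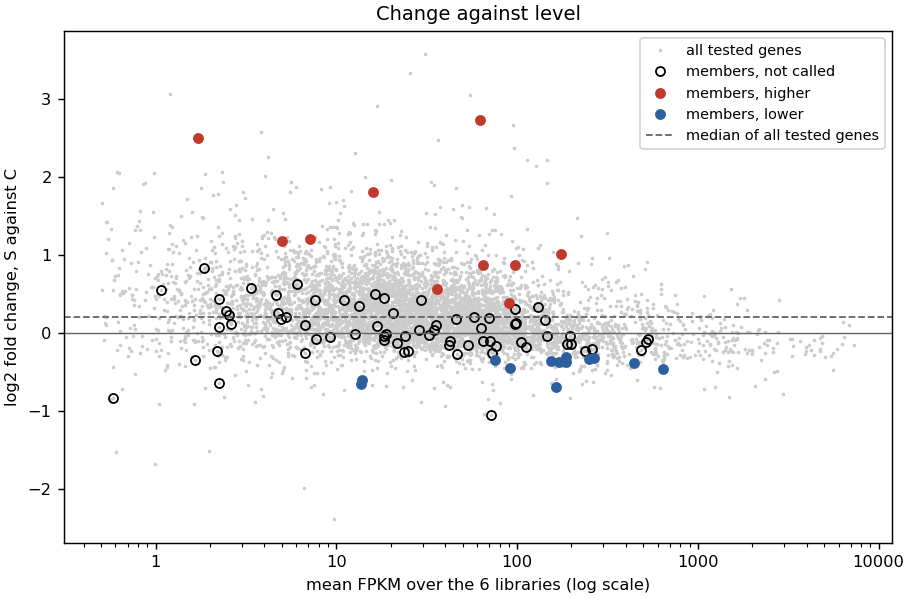
Log2 fold change (S against C) of each gene plotted against its mean FPKM over the 6 libraries (log scale). Grey points are all tested genes, open circles are wall and carbohydrate genes that did not pass the test, red and blue circles are those called higher (10) and lower (13), the solid line marks 0 and the dashed line the median of all tested genes (0.21). The blue circles lie mostly at 100 FPKM or more, and the red circles lie between 1.71 and 176 FPKM.

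Where a gene stood on the abundance scale went along with its change, also outside these genes. Of the 23 wall and carbohydrate genes that averaged 100 FPKM or more, 1 was higher and 9 were lower (39.1%), where 13.1% of all tested genes of this level were higher and 12.7% were lower. With centred libraries, 1 of these 23 was higher and 20 were lower, where 2.89% and 40.4% of all genes of this level were. Between 10 and 100 FPKM, 6 of 45 genes were higher and 4 were lower, against 23.2% and 1.06% of all tested genes of that level. Below 10 FPKM, 3 of 25 tested genes were higher and 0 were lower, against 17.0% and 0.424%. By limma without adjustment, 1 of these 25 was lower at p under 0.05. The limits of 10 and 100 FPKM were chosen with the values known, and no test was made over the genes.

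**Figure D2:**
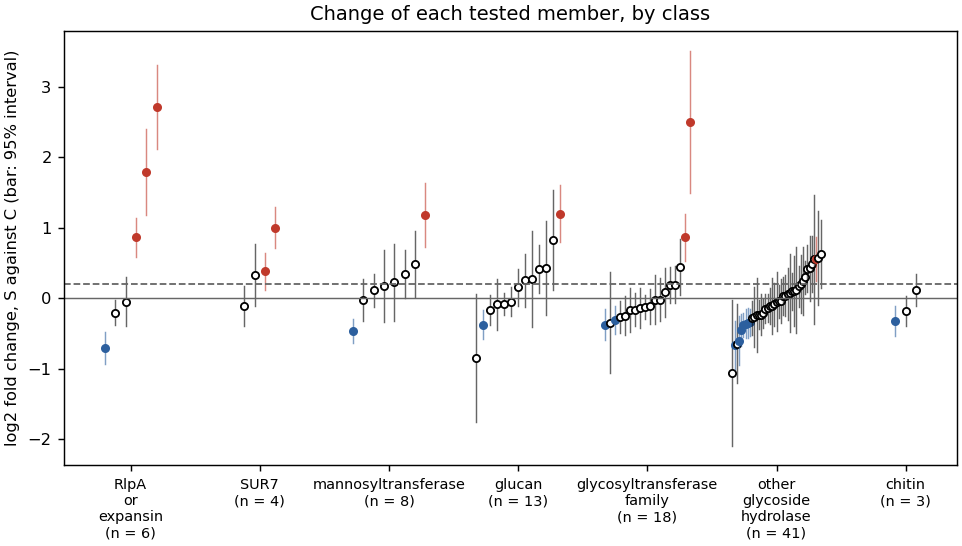
Log2 fold change (S against C) of each of the 93 tested genes, grouped by the class its description falls in, with n genes tested per class and bars for the 95% interval of limma. Filled red points were called higher, filled blue points lower and open points neither, the solid line marks 0 and the dashed line the median of all tested genes. The RlpA class spans from −0.70 to 2.72, while the chitin class stays between −0.32 and 0.12.

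RlpA-like proteins had the widest span of log2 fold changes of the 7 classes. Expansins and related proteins with this domain bind wall polysaccharides, and the role of these yeast genes is not annotated beyond the domain. Of 7 genes, 6 were tested, 3 of them rose and 1 fell, where 19.9% of all tested genes rose and 3.03% fell. With centred libraries 3 were higher and 2 lower, against 7.26% and 15.3% of all tested genes. After quantile normalization the counts were 3 and 1, against 6.61% and 8.47%. Gene 4335 (contig LN483157.1, 575265 to 575950, minus strand) stood at 68.2, 125 and 131 FPKM in the S libraries, against 11.5, 15.9 and 21.0 FPKM in the C libraries. The lowest S library was more than 3 times the highest C library, and S1 stood below the other S libraries. Its mean was 6.71-fold higher in the S group (log2 fold change 2.72, SE 0.27, adjusted p = 0.000706), the 6th largest of all 6113 tested genes. Its adjusted p stayed between 0.000181 and 0.00377 when any 1 library was left out.

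Gene 4289, an RlpA-like gene on the same contig (511062 to 511995, plus strand), stood at 15.3, 26.8 and 32.4 FPKM in the S libraries, against 5.32, 6.61 and 8.68 FPKM in the C libraries. Its groups did not overlap, and S1 was again the lowest S library. The log2 fold change was 1.80 (SE 0.28, adjusted p = 0.00309). Gene 10251 (contig LN483332.1, 337169 to 337887) stood at 107, 133 and 140 FPKM in the S libraries, against 65.8, 65.8 and 76.2 FPKM in the C libraries. All S values were above all C values, and the log2 fold change was 0.87 (SE 0.13, adjusted p = 0.00264). In all 3 of these rising genes, S1 was the lowest and S3 the highest library of the S group, and C3 was the highest of the C group. The study's sequencing summary gives S3 the most reads. Whether depth had a part in this order was not tested.

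Gene 10785, also RlpA-like and on contig LN483332.1 (1175267 to 1177187), went the other way. It stood at 126, 111 and 137 FPKM in the S libraries, against 193, 203 and 212 FPKM in the C libraries. Its log2 fold change of −0.70 (SE 0.10, adjusted p = 0.00276) was the steepest fall that passed the test among the wall and carbohydrate genes, and it held in each fit with 1 library left out. The most abundant RlpA-like gene, gene 7747, stood at 249, 243 and 235 FPKM in the S libraries, against 266, 283 and 288 FPKM in the C libraries. The groups did not overlap, but the difference did not pass (log2 fold change −0.20, 95% interval −0.39 to −0.02, adjusted p = 0.0950, and 0.0165 with centred libraries). Gene 11143, named after its values were seen to complete the class, was at 23.6 ± 4.18 FPKM in the S group and 24.2 ± 2.52 FPKM in the C group (log2 fold change −0.05, 95% interval −0.39 to 0.30). The last RlpA-like gene, gene 2717, was listed at 0 in every C library and at 0.0839 to 0.334 FPKM in the S libraries, under the limit for testing. Gene 10785 had the longest coding length of the class, 1371 bases.

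**Figure D3:**
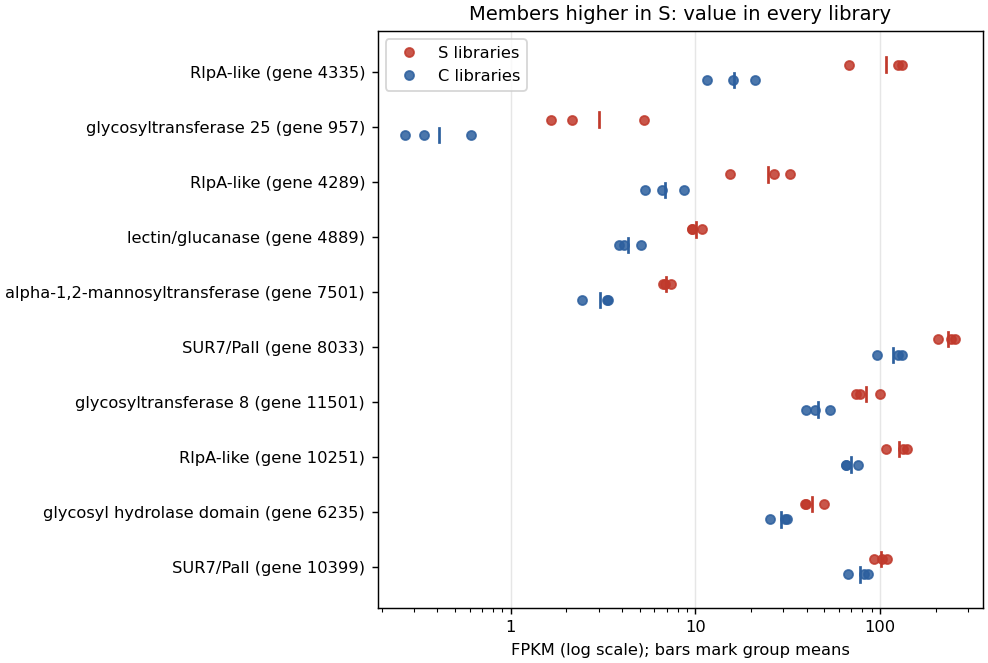
FPKM of the 10 wall and carbohydrate genes called higher in the S group, on a log scale, with 1 point per library (red for S, blue for C) and a short bar at each group mean. Genes are ordered from the largest log2 fold change (gene 4335, 2.72) at the top to the smallest (gene 10399, 0.38) at the bottom, and the S and C points of a gene do not overlap.

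SUR7/PalI proteins rose in 2 of 4 genes and fell in 0 as deposited, where 19.9% of all tested genes rose and 3.03% fell. At an unadjusted p under 0.05, 0 fell as well. With centred libraries 1 was higher and 1 was lower, and after quantile normalization 1 and 0. In *Saccharomyces cerevisiae* Sur7 marks static domains of the plasma membrane, and PalI of *Aspergillus* belongs to the sensing of external pH. Gene 8033 (contig LN483167.1, 1907877 to 1908949) stood at 242, 206 and 255 FPKM in the S libraries, against 131, 125 and 96.4 FPKM in the C libraries. It was the most abundant gene that rose, and its lowest S value was well above its highest C value. The log2 fold change was 1.005 (SE 0.13, adjusted p = 0.00188), and it was called under all 3 scalings and without any 1 library.

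Gene 10399, of the same description, changed far less. Its values were 103, 93.2 and 110 FPKM in the S libraries, against 81.8, 85.8 and 67.5 FPKM in the C libraries. The groups did not overlap, and the log2 fold change of 0.38 (SE 0.12, adjusted p = 0.0456) passed by a narrow margin. The call ended with centred libraries (0.11, adjusted p = 0.470), after quantile normalization (adjusted p = 0.169), without the mean-variance trend (adjusted p = 0.0865) and when any 1 library other than C1 was left out (adjusted p = 0.0633 to 0.164). The other genes of the class, named after their values were seen, did not pass as deposited. Gene 10831 spread widely, from 108 to 192 FPKM in the S group and from 101 to 140 FPKM in the C group. Gene 6943 was at 40.7 ± 1.30 FPKM in the S group and 44.0 ± 5.78 FPKM in the C group (log2 fold change −0.10, 95% interval −0.39 to 0.18). It was called lower with centred libraries (−0.38, adjusted p = 0.0328), but not after quantile normalization (adjusted p = 0.0607).

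Chitin synthase genes fell in 2 of 5 tested cases and rose in 0, where 3.03% of all tested genes fell and 19.9% rose. Chitin is a polymer of N-acetylglucosamine that is laid down mainly at the bud neck and septum. Of 6 genes of glycosyltransferase family 2 that carry the enzyme number of chitin synthase, 5 were tested, and at an unadjusted p under 0.05 the counts were 3 lower and 0 higher. With centred libraries 4 of the 5 were lower, and likewise 4 after quantile normalization, where 15.3% and 8.47% of all tested genes were. The log2 fold changes of the 5 as deposited ran from −0.37 to −0.02. Gene 12165 stood at 164, 149 and 136 FPKM in the S libraries, against 195, 198 and 187 FPKM in the C libraries. Gene 11175 stood at 178, 162 and 161 FPKM in the S libraries, against 211, 202 and 207 FPKM in the C libraries. Neither gene's groups overlapped, and the log2 fold changes were −0.37 (SE 0.10, adjusted p = 0.0234) for gene 12165 and −0.31 (SE 0.09, adjusted p = 0.0309) for gene 11175. Both averaged more than 100 FPKM, a level at which 12.7% of all tested genes fell as deposited and 40.4% with centred libraries.

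Gene 2057, also a chitin synthase gene, stood at 66.5, 66.5 and 63.8 FPKM in the S libraries, against 82.5, 81.2 and 72.8 FPKM in the C libraries. It did not pass as deposited (log2 fold change −0.26, adjusted p = 0.0886), and passed with centred libraries and after quantile normalization. Genes 5845 and 9647, named after their values were seen, were at 20.6 ± 1.21 and 18.8 ± 0.980 FPKM in the S group and at 22.7 ± 1.60 and 19.0 ± 1.98 FPKM in the C group, without passing. The last gene of the set was too low to be tested, at 0.505 to 0.837 FPKM in the S group and 0.250 to 0.322 FPKM in the C group.

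Gene 11555, described as the catalytic subunit of chitin synthase III, stood at 235, 245 and 233 FPKM in the S libraries, against 311, 320 and 264 FPKM in the C libraries. It carries no enzyme number, and its coding length is 1116 bases, beside 5976 and 4092 for genes 12165 and 11175. The C group spread more than the S group, with C3 nearest to the S values. Its log2 fold change of −0.32 (SE 0.10, adjusted p = 0.0365) lost its call after quantile normalization (adjusted p = 0.0534) and in 5 of the 6 fits with 1 library left out (up to 0.147). Without C3 it held. The calls of genes 12165 and 11175 were lost without S2, S3 or C2 (adjusted p up to 0.0997 and 0.121), and that of gene 11175 also without C1. Without the mean-variance trend of limma, genes 12165, 11175 and 11555 did not pass (adjusted p = 0.0605, 0.0746 and 0.0926).

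Chitinases cut chitin, for instance when a daughter cell separates. Gene 6977, a glycoside hydrolase with the enzyme number of chitinase, stood at 11.3, 10.8 and 10.6 FPKM in the S libraries, against 19.7, 15.6 and 14.8 FPKM in the C libraries. All S values lay below all C values, at −0.60 on the log2 scale (SE 0.16, adjusted p = 0.0236), and the call was lost without S2, S3, C1 or C2 (adjusted p up to 0.0855). Genes 8943 and 4171, both described as chitinase and named after their values were seen, had log2 fold changes of −0.18 (95% interval −0.40 to 0.03) and 0.12 (−0.11 to 0.35). The direction of gene 4171 turned with centred libraries and after quantile normalization. Over the 4 genes with that description or enzyme number, 1 fell and 0 rose, against 3.03% and 19.9% of all tested genes. At an unadjusted p under 0.05 the counts were also 1 and 0. With centred libraries 2 of the 4 were lower, against 15.3% of all tested genes, and gene 8943 was among them (adjusted p = 0.0216).

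Genes with the word glucan, a group of polymers that includes the main one of the wall, moved both ways. Of 13 tested, 1 rose and 1 fell (7.69% each), against 19.9% and 3.03% of all tested genes. Their log2 fold changes ran from −0.84 to 1.20 with a median of 0.16. The word also takes in a 1,4-alpha-glucan branching enzyme, gene 2313. The lowest value was that of gene 7511, an endoglucanase at a mean of 0.584 FPKM. Hydrolases of families 17 and 72 are counted in another class. Gene 4889, a concanavalin A-like lectin/glucanase, stood at 9.62, 9.62 and 10.9 FPKM in the S libraries, against 3.84, 4.08 and 5.07 FPKM in the C libraries. Its mean was 2.32-fold higher in the S group, the S values lay close together, and the log2 fold change was 1.20 (SE 0.18, adjusted p = 0.00304). It was the only one of 7 tested genes of this description that was called as deposited. The most abundant of them, gene 7345, was at 515 ± 14.8 FPKM in the S group and 545 ± 7.22 FPKM in the C group (log2 fold change −0.08, 95% interval −0.24 to 0.08). It was called lower with centred libraries (adjusted p = 0.0363).

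Gene 6621, described as an endo-beta-glucanase, stood at 162, 174 and 152 FPKM in the S libraries, against 219, 208 and 204 FPKM in the C libraries. All S values were below all C values (log2 fold change −0.37, SE 0.09, adjusted p = 0.0182), and the call was lost without S3 or C2 (adjusted p = 0.0815 and 0.0599) or without the trend (0.0521). Its KEGG entry in the table belongs to nicotinate metabolism and not to a glucanase. The synthases, named after their values were seen, did not pass. Gene 10159, described as the catalytic subunit of the beta-glucan or callose synthase, was at 150 ± 8.05 FPKM in the S group and 136 ± 19.4 FPKM in the C group (95% interval of the log2 fold change −0.10 to 0.42, with a direction that turned with centred libraries). Gene 5099, an alpha-glucan synthase of 65 exons, was at 7.49 ± 0.179 FPKM in the S group and 7.96 ± 0.633 FPKM in the C group (95% interval −0.44 to 0.28).

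Family 17 of the glycoside hydrolases, whose yeast members cut and link beta-glucan, had 3 genes, and all 3 S values lay below all 3 C values in each. That order held in 7.48% of all tested genes, and in 23.6% of those of 100 FPKM or more. Gene 3379 stood at 239, 214 and 213 FPKM in the S libraries, against 284, 281 and 277 FPKM in the C libraries. Gene 3475 stood at 147, 130 and 128 FPKM in the S libraries, against 171, 172 and 176 FPKM in the C libraries. Both fell, with log2 fold changes of −0.34 (SE 0.08, adjusted p = 0.0198) and −0.36 (SE 0.09, adjusted p = 0.0231), and both calls were lost without S2, S3 or C2 (adjusted p up to 0.0877 and 0.0973), and without the trend (0.0604 and 0.0574). Genes 3379 and 3475 averaged more than 100 FPKM, a level at which 12.7% of all tested genes fell as deposited and 40.4% with centred libraries.

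The remaining family 17 gene, gene 8349, had the larger change and the weaker evidence. It stood at 15.9, 69.4 and 72.0 FPKM in the S libraries, against 83.3, 107 and 80.6 FPKM in the C libraries. S1 was far below the other S libraries, which stood just under the C values. Its log2 fold change was −1.06 (SE 0.47, 95% interval −2.09 to −0.02), the 6th lowest of all tested genes, and it did not pass (adjusted p = 0.126). Without S1 the log2 fold change was −0.34 (adjusted p = 0.137). The gene model starts at base 19 of contig LN483179.1 and has a coding length of 465 bases, beside 1215 and 1224 for the other genes of the family. Over the 5 genes with the enzyme number of exo-beta-glucanase, which include family 17, 2 fell and 0 rose, and at an unadjusted p under 0.05 the counts were 3 and 0. As deposited, 3.03% of all tested genes fell and 19.9% rose.

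**Figure D4:**
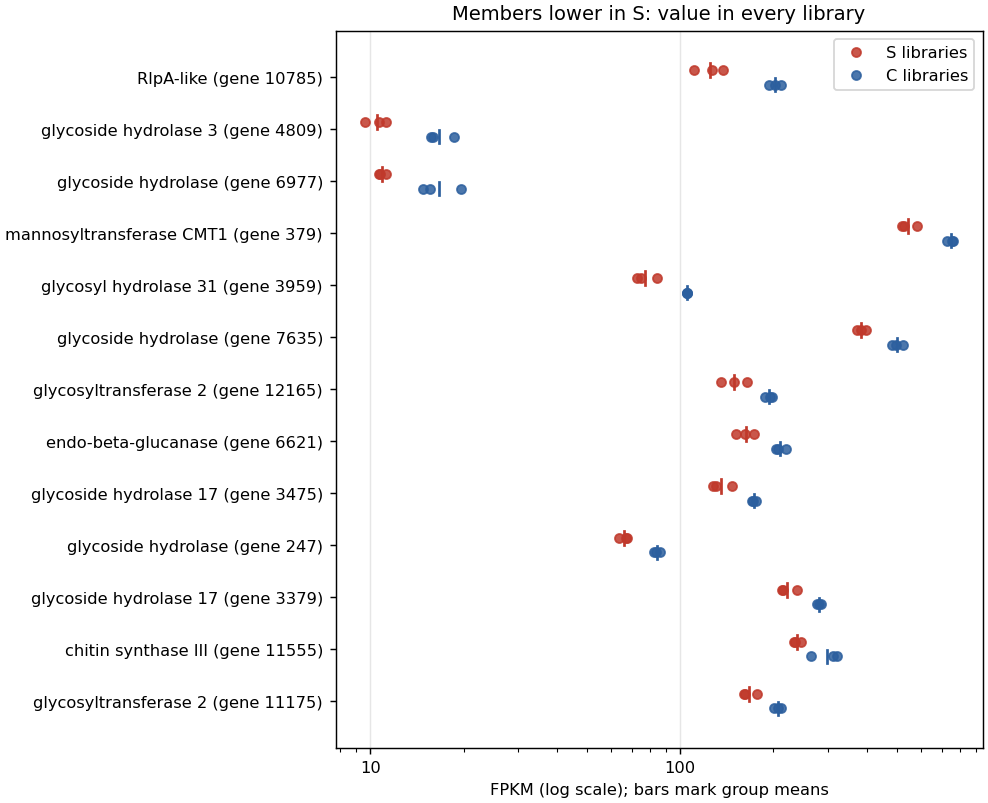
FPKM of the 13 wall and carbohydrate genes called lower in the S group, on a log scale, with 1 point per library (red for S, blue for C) and a short bar at each group mean. Genes are ordered from the steepest fall (gene 10785, −0.70) at the top to the smallest (gene 11175, −0.31) at the bottom. Most lie above 100 FPKM, and the S and C points of a gene do not overlap.

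The other glycoside hydrolases, including family 17, made up the largest class, with 43 genes. Of 41 tested, 7 fell and 1 rose (17.1% and 2.44%), against 3.03% and 19.9% of all tested genes, and the median log2 fold change was −0.05. With centred libraries 18 were lower and 0 higher, against 15.3% and 7.26% of all tested genes. After quantile normalization the counts were 12 and 0, against 8.47% and 6.61%. Gene 4809, a family 3 protein with the enzyme number of beta-glucosidase, stood at 10.7, 9.62 and 11.3 FPKM in the S libraries, against 15.9, 15.7 and 18.6 FPKM in the C libraries. Its groups were well apart, at −0.66 on the log2 scale (SE 0.15, adjusted p = 0.0136), and the call was lost without S2 (adjusted p = 0.0694). Gene 3959, an alpha-glucosidase of family 31, had 74.7, 72.4 and 84.3 FPKM in the S libraries and 105 FPKM in each C library. Its log2 fold change was −0.45 (SE 0.10, adjusted p = 0.0128), and the call was lost without S2 or C2 (adjusted p = 0.0682 and 0.0505).

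Gene 7635, assigned only to the glycoside hydrolase superfamily, stood at 398, 371 and 384 FPKM in the S libraries, against 496, 523 and 483 FPKM in the C libraries. It was one of the 3 falls that held in each fit with 1 library left out, together with genes 379 and 10785 (log2 fold change −0.38, SE 0.08, adjusted p = 0.00888). Gene 247, of the same description, was at 66.0 ± 2.07 FPKM in the S group and 84.0 ± 1.89 FPKM in the C group (log2 fold change −0.35, adjusted p = 0.0290), and its call was lost without S1, S2, S3 or C2 (adjusted p up to 0.125). The most abundant gene of the class, gene 7939, was at 449 ± 21.2 FPKM in the S group and 523 ± 54.0 FPKM in the C group. The groups overlapped and it did not pass (log2 fold change −0.22, adjusted p = 0.120), and it passed with centred libraries (adjusted p = 0.0141).

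The gene of this class that rose was gene 6235, described as an uncharacterised protein with a glycosyl hydrolase catalytic domain. It stood at 39.5, 39.9 and 49.6 FPKM in the S libraries, against 25.5, 31.5 and 30.5 FPKM in the C libraries. The groups did not overlap (log2 fold change 0.56, SE 0.14, adjusted p = 0.0208), but the call was lost with centred libraries (adjusted p = 0.154), after quantile normalization (0.139) and without S2 or S3 (0.0545 and 0.0941). Of 6 genes with the words family 13, the alpha-amylase family, 0 passed in either direction as deposited, and 0 passed at an unadjusted p under 0.05. They are not all sugar-breaking enzymes. Gene 12099 carries the enzyme number of a 1,4-alpha-glucan branching enzyme, and gene 5945 also has a glycosyltransferase domain. With centred libraries 2 of the 6 were lower, and 1 after quantile normalization. Gene 495, of family 71, the alpha-glucanases, stood at 44.3, 41.9 and 39.2 FPKM in the S libraries, against 50.5, 52.2 and 49.1 FPKM in the C libraries. It passed only with centred libraries and after quantile normalization (adjusted p = 0.0918 as deposited, 0.0123 and 0.0196), and 0 of the 4 genes of its family passed as deposited, where 1 was higher and 1 lower at an unadjusted p under 0.05. Gene 10179, of family 72, whose yeast members elongate beta-glucan, was named after its values were seen and was at 194 ± 19.9 FPKM in the S group and 199 ± 16.5 FPKM in the C group (95% interval of the log2 fold change −0.27 to 0.20). It passed as lower only with centred libraries (adjusted p = 0.037). Gene 1949, a lectin/glucanase that passed only when rescaled, was at 72.1 ± 2.16 FPKM in the S group and 81.3 ± 1.73 FPKM in the C group (adjusted p = 0.214 as deposited and 0.0133 with centred libraries).

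Mannosyltransferases add mannose to proteins and lipids of the secretory pathway. Among the 100 genes, 8 carried this word, and 1 rose and 1 fell (12.5% each), against 19.9% and 3.03% of all tested genes. Further genes with this word were among those left out for their KEGG map. Gene 379 is described as CMT1, which in *Cryptococcus neoformans* is an alpha-mannosyltransferase. It stood at 582, 528 and 518 FPKM in the S libraries, against 752, 760 and 725 FPKM in the C libraries, the highest level of all 100 genes. Its highest S library was below its lowest C library, and the log2 fold change of −0.46 (SE 0.08, adjusted p = 0.00436) held under each scaling and in each fit with 1 library left out. The other 3 genes with the CMT1 description did not pass, with log2 fold changes between −0.03 and 0.34.

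Gene 7501, a glycolipid alpha-mannosyltransferase, stood at 7.36, 6.66 and 6.83 FPKM in the S libraries, against 3.38, 2.43 and 3.31 FPKM in the C libraries. The S values lay close together and above every C value, with a 2.29-fold higher mean, or 1.18 on the log2 scale (SE 0.21, adjusted p = 0.00508). The family 39 genes, which carry the enzyme number of the protein O-mannosyltransferases that start mannose chains on wall proteins, did not pass in any of 3 genes as deposited (log2 fold changes from −0.16 to 0.08), and 0 passed at an unadjusted p under 0.05. With centred libraries 2 of the 3 were lower, and 0 after quantile normalization.

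The class with the words glycosyltransferase family, which includes the family 2 chitin synthase and family 39 genes above, had 18 tested genes. Of these, 2 rose and 2 fell (11.1% each), against 19.9% and 3.03% of all tested genes. The falls were the chitin synthase genes 12165 and 11175. With centred libraries 2 were higher and 9 lower, against 7.26% and 15.3% of all tested genes. After quantile normalization the counts were 2 and 6, against 6.61% and 8.47%. Gene 957, described as glycosyltransferase family 25, was low throughout, at 1.65, 2.15 and 5.25 FPKM in the S libraries and 0.341, 0.268 and 0.611 FPKM in the C libraries. S3 was more than 2 times S2, and the lowest S value was above the highest C value. Its log2 fold change was 2.50 (SE 0.45, adjusted p = 0.00606), the 9th largest of all tested genes. Its ratio of group means, 7.41-fold, was above the 6.71-fold of gene 4335. Its C mean was below the limit of 0.5 FPKM, so it was tested only through its S values. Gene 11501, of family 8, which includes glycogenin, the protein that primes glycogen, stood at 74.3, 77.6 and 99.8 FPKM in the S libraries, against 39.8, 44.6 and 53.5 FPKM in the C libraries. Its groups were apart (log2 fold change 0.87, SE 0.15, adjusted p = 0.00504), and both genes held in each fit with 1 library left out. The most abundant gene with this word, gene 5945, which joins a family 13 hydrolase and a family 5 transferase domain, was at 493 ± 24.9 FPKM in the S group and 536 ± 13.5 FPKM in the C group, with groups that overlapped, and did not pass (log2 fold change −0.12, adjusted p = 0.268, and 0.0256 with centred libraries).

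The genes that rose were shorter than those that fell. The median coding length was 904.5 bases (up to 1347) for the 10 rises and 1695 bases (1116 to 5976) for the 13 falls, beside 1022 for all genes that rose and 1248 for all genes that fell. The median level was 49.1 FPKM for the rises and 172 FPKM for the falls, beside 25.1 and 267 FPKM for all genes that rose and fell. Of 28 genes with a GO term that names the cell wall, 0 rose and 3 fell as deposited (0.00% and 10.7%), against 19.9% and 3.03% of all tested genes. At an unadjusted p under 0.05, 4 were higher and 5 lower. With centred libraries 15 of the 28 were lower (53.6%, against 15.3% of all tested genes), and after quantile normalization 8 were (28.6%, against 8.47%). The 100 genes lay on 16 of the 70 contigs. Only the lectin/glucanase genes 10383 and 10385 and the family 15 transferases 11037 and 11039 were direct neighbours, and 0 of these 4 genes passed, with log2 fold changes from 0.19 to 0.83.

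The 7 genes below the limit for testing had means of 0.0877 to 0.466 FPKM over the 6 libraries. They were 2 family 16 hydrolases, 2 family 25 transferases, the lectin/glucanase gene 595, the low chitin synthase gene and the RlpA-like gene 2717. How far reads were shared between genes of near-identical sequence was not tested.

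Genes found by words for sugar precursors of the wall followed both directions. Of 26 tested genes matching words such as UDP-glucose, N-acetylglucosamine and GDP-mannose, 2 rose and 3 fell (7.69% and 11.5%). Of all tested genes, 19.9% rose and 3.03% fell. The median log2 fold change of the 26 was 0.00. With centred libraries the counts were 0 and 9, against 7.26% and 15.3% of all tested genes. The words also matched genes that supply no precursor, such as transferases with a WSC domain, which gave 1 of the rises (gene 9079) and 1 of the falls (gene 2569). Gene 1859, the UDP-glucose dehydrogenase that makes UDP-glucuronic acid, stood at 370, 359 and 361 FPKM in the S libraries, against 484, 511 and 478 FPKM in the C libraries. It was the most abundant of them and fell clear of the spread (log2 fold change −0.43, SE 0.08, adjusted p = 0.00504). Of 32 tested genes found by other wall words, such as cell wall, WSC, pectin and polysaccharide, 5 rose and 2 fell (15.6% and 6.25%). Among all tested genes 19.9% rose and 3.03% fell. The median log2 fold change of the 32 was 0.12. With centred libraries 1 rose and 9 fell (3.12% and 28.1%), against 7.26% and 15.3% of all tested genes. The 2 lists share 7 transferase genes with a WSC domain.

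The list of other wall words held gene 6831, a polysaccharide deacetylase with the enzyme number of chitin deacetylase, which turns chitin into chitosan. It stood at 272, 263 and 277 FPKM in the S libraries, against 416, 397 and 371 FPKM in the C libraries. All S values lay far below all C values, at −0.54 on the log2 scale (SE 0.08, adjusted p = 0.00301). Of the 14 genes left out for their KEGG map, 0 passed in either direction as deposited, and 0 passed at an unadjusted p under 0.05. The most abundant of them, the beta-glucan synthase gene 10329, was at 56.5 ± 1.98 FPKM in the S group and 57.2 ± 2.32 FPKM in the C group (log2 fold change −0.02, 95% interval −0.25 to 0.21). This gene was called lower only with centred libraries (adjusted p = 0.0416). Gene 9583, which makes the mannose donor dolichyl-phosphate mannose, had the smallest adjusted p as deposited (0.148).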

How the data were processed

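RNA was extracted with Trizol, and poly(A) RNA was turned into libraries with dUTP in the second strand. Per the labels, fastp, HISAT2 and StringTie made the files, and no source used here states their versions. The deposited values are StringTie's FPKM, which the authors scaled by gene length and library size. In 99.8% of genes the length is a multiple of 3, so lengths are coding lengths. The table also holds the authors' own fold changes, p-values and q-values, which were left aside, and 0 per-sample columns went unused. Read numbers could not be recovered from the FPKM values: the best of many read sizes tried made 20.0% to 24.3% of a library's low values whole to within 0.05, beside 10% by chance for any 1 size.

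Libraries were grouped by the treatment in their labels. Genes that averaged 0.5 FPKM or more (6113) entered limma 3.58.1 (R 4.3.3) as log2(FPKM + 0.1) with a mean-variance trend, and two-sided p-values were adjusted over all of them. The method was tested on simulated data. Plots used matplotlib 3.10.9 (Python 3.11.15). Alternatives covered the pseudocount, the limit on low values, centring, quantile normalization, no trend, a replicate block and each library left out.

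The genes and lists were chosen with earlier results of these data known. Named were genes 8349, 4335 and 10399, each called gene, the most abundant gene and that with the smallest adjusted p of each class and list, and 4 genes called with centred libraries but not as deposited. Any other name was chosen after its values were seen. A gene's class is the first whose word its description matches.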

Additional observations from a re-analysis of the deposited data

How the results depend on the processing

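The 10 rises and 13 falls were the same in number with a pseudocount of 1 or 0.01 FPKM and with a limit of 1 FPKM. Without a limit on low values, 12 genes were higher and 13 lower. The falls numbered 37 with centred libraries, 23 after quantile normalization and 8 without the trend, and 4 to 15 when 1 library was left out (4 without S2, 5 without S3, 4 without C2). The median log2 fold change of the 93 genes was −0.30 with centred libraries and −0.23 after quantile normalization.

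Among the genes found by precursor words, 0 were higher with centred libraries, 0 after quantile normalization, 1 with the replicate block and 0 to 2 without 1 library. The lower genes found by these words numbered 9 with centred libraries, beside 6 with quantile normalization. Of the genes with other wall words, 1 was higher with centred libraries, 0 after quantile normalization, 3 without the trend and 0 to 5 without 1 library, and 9 were lower with centred libraries, beside 8 with quantile normalization. Among the genes left out for their KEGG map, 2 were lower under the first scaling and 1 under the second.

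Of the genes named with values, 7 uncalled ones changed the sign of their log2 fold change. With centred libraries it was −0.014 for gene 9583, −0.15 for gene 4171 and −0.12 for gene 10159, and after quantile normalization −0.0009 for gene 9583 and −0.010 for gene 4171. Without 1 library it ran from −0.050 to 0.0072 for gene 10329, −0.19 to 0.035 for gene 11143, −0.12 to 0.0063 for gene 10179 and −0.10 to 0.050 for gene 9647. The cause of these shifts was not tested.

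The replicate numbers did not pair the libraries: deviations from the group means correlated at −0.02, 0.16 and −0.0034 for numbers 1, 2 and 3. With the replicate block, 9 genes were higher and 13 lower, which kept 9 of the rises and 12 of the falls, and gene 8349 passed (adjusted p = 0.0449). Of the 23 calls, 11 held in each of the 6 fits without 1 library, 8 rises and 3 falls. With 3 libraries in each group, the wide intervals of low genes leave small changes unresolved.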
